A study of Homo sapiens with 12 samples.

Results

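The genes described here are 10 components of the endoplasmic reticulum (ER) folding machinery and of the unfolded protein response: the transducers ERN1, ATF6 and XBP1, the lumenal chaperones and co-chaperones HSPA5, HSP90B1, DNAJB9, DNAJC3 and SDF2L1, the disulfide isomerase PDIA4, and HERPUD1 of ER-associated degradation. They were taken by gene symbol from the count table and not by a cut on measured values. Earlier results of these data were known when they were chosen as a readout of ER stress that is separate from ATF4 induction. Each symbol matched 1 of the 43769 genes in the table, and all 10 were among the 15828 genes with enough reads to test. RNA-sequencing counts came from 12 libraries of SK-N-DZ, an established human neuroblastoma line with amplified MYCN, in 4 groups of 3 replicates. The control group (C) was untreated, the second group (D) received doxycycline for 4 days, the next (I) received IFNγ for 24 hours, and the last (DI) received both. All groups derive from a single puromycin-selected clone that carries a hairpin against ARID1A, a subunit of the SWI/SNF chromatin remodeler, under a doxycycline-inducible promoter. The labels call the groups without doxycycline wild-type and those with it shARID1A. No library received doxycycline without the hairpin, so effects of the drug and of the hairpin cannot be told apart, and nothing in the labels says that replicates came from separate cultures, so p-values measure the spread between these libraries, which may be technical.

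When unfolded proteins accumulate in the ER lumen, they are sensed by the membrane proteins IRE1 (encoded by ERN1), ATF6 and PERK (encoded by EIF2AK3). IRE1 splices XBP1 mRNA into the form that encodes an active transcription factor, and ATF6 is cut in the Golgi by the proteases encoded by MBTPS1 and MBTPS2 to release another, and together these factors drive the chaperone and degradation genes. PERK phosphorylates the translation factor eIF2α, which favors synthesis of ATF4. Other kinases reach ATF4 without ER stress, so ATF4 target genes alone do not identify the ER as a source, whereas HSPA5, HSP90B1, SDF2L1, DNAJB9 and HERPUD1 are standard ER stress markers. HERPUD1 is also known as a target of ATF4.

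Motifs that the ER transcription factors use were searched in the RefSeq promoters of the genes (GRCh38.p14, 250 bases before to 50 after each start site, both strands). The search shows which genes hold an exact match to the classical response element in these windows. Elements with other letters or outside the windows were not searched. The ER stress response element (ERSE) was searched as CCAAT, 9 bases of any kind, CCACG, and ERSE-II as ATTGG, 1 base of any kind, CCACG. All 10 symbols were found in the promoter table, and 5 of them held an ERSE or ERSE-II, shown here 5′ to 3′ in windows of 30 bases with the motif's fixed letters in capitals.
HSPA5 ERSE, chr9:125241385-125241414, minus strand: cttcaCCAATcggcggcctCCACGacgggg
HSP90B1 ERSE, chr12:103930211-103930240, plus strand: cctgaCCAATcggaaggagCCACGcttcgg
HSP90B1 ERSE, chr12:103930315-103930344, minus strand: acccaCCAATcgcgccgcaCCACGcaccca
XBP1 ERSE, chr22:28800597-28800626, minus strand: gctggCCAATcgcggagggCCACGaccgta
HERPUD1 ERSE-II, chr16:56932016-56932045, plus strand: cggacgccgATTGGgCCACGttgggagagt
SDF2L1 ERSE-II, chr22:21642104-21642133, minus strand: agggttttgATTGGtCCACGcttccgagga
The HSPA5, XBP1 and HERPUD1 motifs and the first HSP90B1 motif lie on the gene's own strand, and the others on the opposite strand. Of all 35116 RefSeq promoters of this length, 27 (0.0769%) held an ERSE and 19 (0.0541%) an ERSE-II. An XBP1-type element (TGACGTGG) was found in 256 promoters (0.729%) and an ATF4-type element (ATTGCATCA) in 83 (0.236%), and in none of the 10 genes, so these letters are absent from these windows only.

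The libraries held 16469832 to 21790869 counts. Most adrenergic neuroblastoma markers were high, with GATA3 at 526 to 804 and MYCN at 772 to 1496 CPM (counts scaled to the TMM-adjusted library size), whereas CD3E and PECAM1 were at 0 counts in every library. Other adrenergic markers were lower with doxycycline. TH, the first enzyme of catecholamine synthesis, ranged from 0.695 to 74.7 CPM and was called lower in the mean of both doxycycline contrasts (−3.82, adjusted p = 0.0349), though it was lower in only 4 of 6 same-numbered pairs. With the replicate number as a block HAND2 (−0.55) and DBH (−1.23) were also called lower in that mean (adjusted p = 0.000608 and 0.00612). The part of this marker change in the results below was not tested. The 10 markers of blood, fibroblast, epithelial and endothelial cells summed to 28.7 to 97.3 CPM, with PDGFRB alone at 17.2 to 81.6 CPM, and their sums overlapped between groups. ARID1A itself did not pass the test in D vs C (log2 fold change −0.09, SE 0.11, edgeR adjusted p = 0.788) or in DI vs I (−0.44, SE 0.11, adjusted p = 0.115, or 0.0111 with the replicate number as a block). In the mean of both doxycycline contrasts it was −0.27 (SE 0.077, adjusted p = 0.0606, or 0.00858 with the block). The groups are therefore named by their labels. The interferon-induced factor IRF1 rose from 2.14 ± 0.288 CPM in C to 411 ± 31.0 in I (SD, n = 3). Libraries D 3 and DI 3, replicate 3 of each doxycycline-treated group, stood apart in the ATF4 genes described below, and the affected member and ATF4 results are given with and without them. Libraries with the same replicate number deviated together from their group means, so values with the replicate number as a block are given where they change the call of a named gene or a list.

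Of the 10 genes, 1 was called in D vs C, where 1.23% of all tested genes were called, and 1 in DI vs I, where 0.67% were called (edgeR quasi-likelihood test, BH adjusted p under 0.05). In both cases this was DNAJB9, which was lower with doxycycline, a direction called for 0.733% and 0.569% of all tested genes. In the mean of both doxycycline contrasts 2 genes were called, with DNAJB9 lower and HERPUD1 higher, beside 7.68% of all tested genes (3.66% higher, 4.02% lower). The major chaperones HSPA5, HSP90B1 and PDIA4 were not called in any of these contrasts. With the replicate block the calls were 2 in D vs C (background 13.9%), 2 in DI vs I (10.5%) and 4 in the mean effect (29%), where HERPUD1 and XBP1 were higher (background 13.3%) and DNAJB9 and HSP90B1 lower (background 15.8%).

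**Figure D1:**
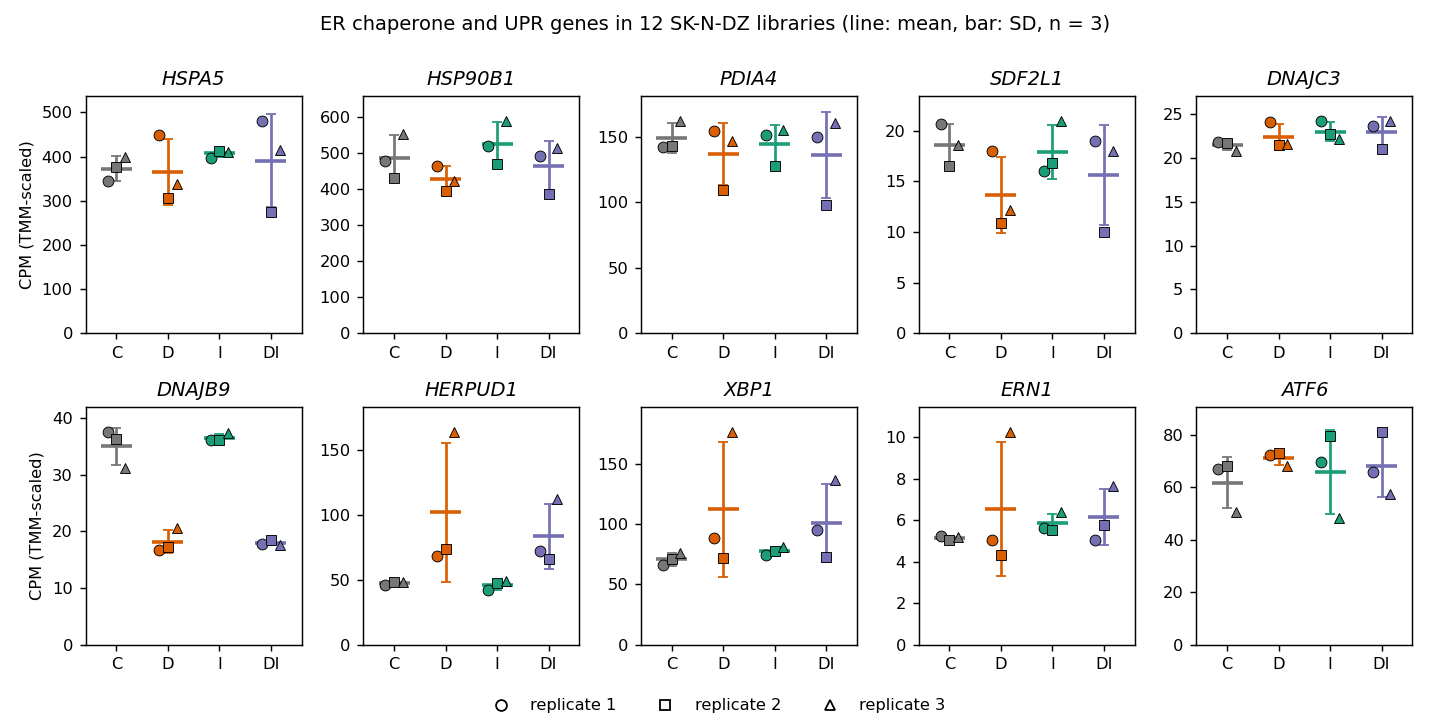
CPM of the 10 genes (y axis, TMM-scaled, starting at 0) in each library of C, D, I and DI (x axis). Circles, squares and triangles are replicates 1, 2 and 3, thick lines are means and bars are SDs over the 3 libraries of a group. DNAJB9 is lower in every library with doxycycline, whereas HERPUD1, XBP1 and ERN1 are highest in D replicate 3.

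Expression was first set side by side per kilobase of annotated exon, since CPM cannot be compared between genes of different length. Over the 12 libraries the mean was 102 CPM per kb for HSP90B1, 98.2 for HSPA5, 43.2 for PDIA4, 29.9 for XBP1, 15.0 for SDF2L1, 13.5 for HERPUD1, 9.49 for DNAJB9, 8.46 for ATF6, 4.01 for DNAJC3 and 0.546 for ERN1. The ranges of HSP90B1 (82.5 to 126) and HSPA5 (70.2 to 123) overlapped, as did those of the neighbours from SDF2L1 through ATF6 in this order, and those of PDIA4 (29.98 to 49.4) and XBP1 (21.7 to 58.2). Between neighbours in this order, gaps separated HSPA5 from PDIA4, XBP1 from SDF2L1 (highest 19.1), ATF6 (lowest 6.14) from DNAJC3 (highest 4.33), and DNAJC3 (lowest 3.72) from ERN1 (highest 0.944). HERPUD1, which ranked below SDF2L1, still reached into the ranges of XBP1 and PDIA4 in D 3.

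Among the transducers, ERN1 (chromosome 17, 64039142 to 64130819, minus strand; all gene positions are GENCODE release 29 on GRCh38) encodes the IRE1 kinase and endoribonuclease. ERN1 had 5.22, 5.07 and 5.17 CPM in replicates 1 to 3 of C, and 5.05, 4.35 and 10.3 in D. It had 5.64, 5.51 and 6.39 CPM in I, and 5.03, 5.79 and 7.66 in DI. Only D 3 and DI 3 exceeded every library without doxycycline, while D 2 was the lowest of all. The fitted log2 fold change was 0.34 in D vs C (SE 0.31, adjusted p = 0.687 by edgeR) and 0.08 in DI vs I (SE 0.30, adjusted p = 0.966). Without D replicate 3 the D vs C value turned to −0.13, and without DI replicate 3 the DI vs I value turned to −0.11.

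XBP1 (chromosome 22, 28794555 to 28800597, minus strand) encodes the factor activated by IRE1, and is itself a target of ATF6 and of its own protein. Counts per gene do not separate its spliced from its unspliced form. XBP1 had 65.6, 70.6 and 76.2 CPM in C, against 88.4, 71.8 and 176 in D. It had 74.4, 77.7 and 81.1 CPM in I, against 95.1, 72.5 and 136 in DI. Replicates 1 and 3 with doxycycline lay above all libraries without it, and replicate 2 did not. The log2 fold change was 0.66 in D vs C (SE 0.30, adjusted p = 0.359), 0.38 in DI vs I (SE 0.30, adjusted p = 0.702) and 0.52 in the mean effect (SE 0.21, adjusted p = 0.167, or 0.45 with adjusted p = 0.0390 under the replicate block). Without D 3 the D vs C value was 0.18, and without DI 3 the DI vs I value was 0.11.

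ATF6 (chromosome 1, 161766294 to 161964070, plus strand) encodes the sensor that is released by cleavage, a step that mRNA levels do not report. ATF6 had 66.8, 68.0 and 50.7 CPM in C, against 72.2, 73.0 and 68.2 in D. It had 69.7, 79.6 and 48.4 CPM in I, against 65.9, 81.0 and 57.6 in DI. Replicate 3 was the lowest of each group, so the libraries differed more by replicate than by treatment. D lay above C without overlap, a pattern shared by 10.1% of all tested genes, but the log2 fold change of 0.20 did not pass the test (SE 0.19, adjusted p = 0.709). In DI vs I it was 0.05 (SE 0.19, adjusted p = 0.964).

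HSPA5 (chromosome 9, 125234853 to 125241330, minus strand) encodes BiP, the ER Hsp70 that binds unfolded proteins and holds the sensors inactive. HSPA5 had 344, 376 and 399 CPM in C and 450, 306 and 339 in D. It had 398, 413 and 410 CPM in I and 480, 274 and 416 in DI. The doxycycline libraries spread to both sides of the others, with D 1, DI 1 and DI 3 above and D 2, D 3 and DI 2 below every library without doxycycline. The log2 fold change was −0.03 in D vs C (95% interval −0.45 to 0.39, adjusted p = 0.971) and −0.06 in DI vs I (−0.48 to 0.36, adjusted p = 0.951). In the mean effect it was −0.05 with an interval of −0.35 to 0.25, which leaves room for changes of up to about that size in either direction. The sign of these HSPA5 values turned to positive when libraries were scaled by size alone (0.05 in D vs C).

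HSP90B1 (chromosome 12, 103930107 to 103953645, plus strand) encodes GRP94, the ER Hsp90. HSP90B1 had 478, 431 and 555 CPM in C, against 466, 395 and 423 in D. It had 519, 469 and 589 CPM in I, against 492, 387 and 515 in DI. D overlapped C and DI overlapped I, yet each doxycycline library was below the library with the same replicate number and no doxycycline, in 6 of 6 pairs. The share of all tested genes with such a pattern was not computed, here or for the 6 of 6 pairs of other genes below. The mean effect was −0.18 (SE 0.10, adjusted p = 0.299), and passed the test with the replicate block (−0.18, SE 0.056, adjusted p = 0.0336). In that fit 15.8% of all tested genes were called lower.

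DNAJC3 (chromosome 13, 95677139 to 95794989, plus strand) encodes p58IPK, a co-chaperone of BiP. DNAJC3 had 20.8 to 21.8 CPM in C against 21.5 to 24.0 in D. It had 22.1 to 24.1 CPM in I against 21.0 to 24.2 in DI, and all 12 libraries lay within this narrow range. Its log2 fold change was 0.06 in D vs C (95% interval −0.18 to 0.30) and −0.00 in DI vs I (−0.24 to 0.23), and neither passed the test.

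SDF2L1 (chromosome 22, 21642261 to 21644298, plus strand) encodes a lumenal protein that works with the ER Hsp40 proteins in the BiP cycle. SDF2L1 had 20.7, 16.5 and 18.6 CPM in C, against 18.0, 10.9 and 12.2 in D. It had 16.0, 16.8 and 21.0 CPM in I, against 19.0, 9.999 and 18.0 in DI. The libraries D 2, D 3 and DI 2 were the lowest, and the remaining doxycycline libraries lay among the others. The log2 fold change was −0.44 in D vs C (SE 0.26, adjusted p = 0.492) and −0.19 in DI vs I (SE 0.26, adjusted p = 0.856).

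PDIA4 (chromosome 7, 149003062 to 149028641, minus strand) encodes ERp72, which forms and rearranges disulfide bonds. PDIA4 had 142, 143 and 162 CPM in C, against 154, 110 and 147 in D. It had 151, 128 and 155 CPM in I, against 149, 98.2 and 160 in DI. As for HSPA5, D 2 and DI 2 were the lowest libraries, and the groups overlapped. The log2 fold change was −0.12 in D vs C (SE 0.18, adjusted p = 0.842) and −0.09 in DI vs I (SE 0.18, adjusted p = 0.920).

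DNAJB9 (chromosome 7, 108569568 to 108574850, plus strand) encodes ERdj4, an Hsp40 co-chaperone that is induced by XBP1 during ER stress and keeps IRE1 repressed. DNAJB9 had 37.5, 36.3 and 31.2 CPM in C, against 16.7, 17.3 and 20.6 in D. It had 36.1, 36.1 and 37.3 CPM in I, against 17.8, 18.5 and 17.7 in DI. Every library with doxycycline was below every library without it, a separation in the lower direction that 3.09% of all tested genes showed over 6 against 6 libraries. Group means were 35.0 ± 3.33, 18.2 ± 2.09, 36.5 ± 0.693 and 18.0 ± 0.455 CPM in C, D, I and DI (SD, n = 3).

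The log2 fold change of DNAJB9 was −0.95 in D vs C (SE 0.12, edgeR adjusted p = 0.00491), a fold of 0.519, and −1.02 in DI vs I (SE 0.12, adjusted p = 0.00484), a fold of 0.493. In the mean effect it was −0.98 (SE 0.083, adjusted p = 0.000155). The exact permutation p was 0.1 in each contrast, the smallest that 3 against 3 libraries can give. Leaving out any 1 library kept both calls. Fits of only the 6 libraries compared gave the same size with adjusted p = 0.0929 for D vs C and 0.0770 for DI vs I, and leaving out all libraries of a replicate number also lost both calls, while the mean effect kept its call.

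DNAJB9 shares exonic bases with genes on the opposite strand, 183 with THAP5 and 99 with PNPLA8, and whether counting used strand is not given in the sources used here. THAP5 was also lower with doxycycline, at 40.0 to 50.2 CPM in D against 67.2 to 76.1 in C, and at 43.5 to 51.4 in DI against 68.9 to 75.7 in I. Its log2 fold change was −0.68 in D vs C (adjusted p = 0.0168) and −0.61 in DI vs I (adjusted p = 0.0341). PNPLA8 had −0.24 and −0.33 and was not called (adjusted p = 0.359 and 0.249), although the DI vs I value passed with the replicate block (−0.33, adjusted p = 0.0239). The part of these neighbours in the DNAJB9 result was not tested.

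HERPUD1 (chromosome 16, 56932048 to 56944863, plus strand) encodes Herp, a membrane protein of the ER degradation complexes. HERPUD1 had 45.7, 48.6 and 48.5 CPM in C, against 68.4, 74.0 and 164 in D. It had 41.8, 47.7 and 48.9 CPM in I, against 72.6, 65.7 and 112 in DI. All 6 doxycycline libraries were above all 6 others, as were 2.86% of all tested genes, and replicate 3 was the highest of both treated groups by a wide margin. The mean was 47.6 ± 1.67 CPM in C and 102 ± 53.6 in D, and 46.1 ± 3.79 in I and 83.5 ± 25.2 in DI (SD, n = 3).

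The log2 fold change of HERPUD1 was 1.10 in D vs C (SE 0.31, adjusted p = 0.128) and 0.86 in DI vs I (SE 0.31, adjusted p = 0.278), neither of which passed. With the replicate block they were 1.00 (adjusted p = 0.0128) and 0.81 (adjusted p = 0.0348), and both passed, and by DESeq2 D vs C passed (adjusted p = 0.0170). The mean effect was 0.98 (SE 0.22, adjusted p = 0.0232), so HERPUD1 rose over both contrasts together. Without D 3 the D vs C value was 0.58 and without DI 3 the DI vs I value was 0.58. Leaving out replicate 3 of every group gave a mean effect of 0.62 that still passed (adjusted p = 0.0352). The HERPUD1 mean effect lost its call without any 1 library of C or I or without DI 3 (adjusted p from 0.0501 to 0.0600), and without replicate 1 (0.219) or replicate 2 (0.0539) of every group.

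**Figure D2:**
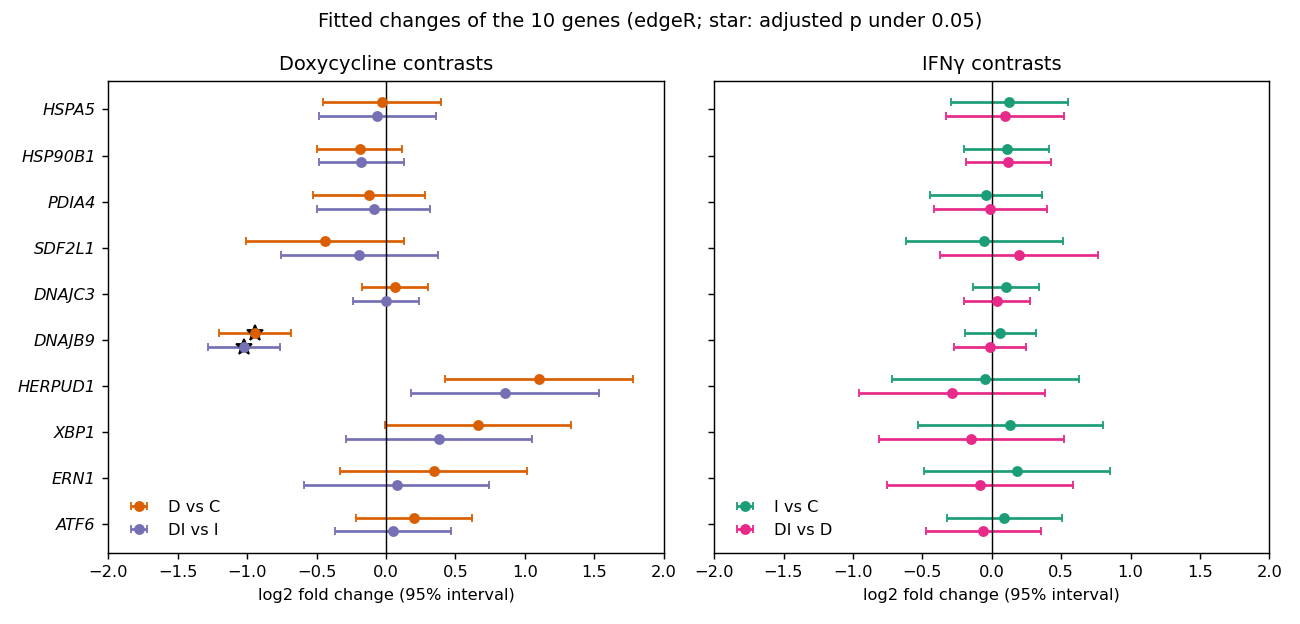
Fitted log2 fold changes of the 10 genes (x axis) with 95% intervals, for D vs C and DI vs I (left) and for I vs C and DI vs D (right). Stars mark an adjusted p under 0.05, which only DNAJB9 reached, at −0.95 and −1.02. The HERPUD1 intervals lie above 0 in both doxycycline contrasts, and all intervals of the IFNγ contrasts include 0.

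IFNγ left no call among the 10 genes. In I vs C their log2 fold changes ran from −0.05 (SDF2L1) to 0.18 (ERN1), and 0 of 10 were called, against 2.21% of all tested genes. In DI vs D they ran from −0.29 (HERPUD1) to 0.19 (SDF2L1), and 0 of 10 were called, against 1.72%. None of the 10 had an unadjusted p under 0.05 in either contrast, where 8% and 6.24% of all tested genes did, and DESeq2 also gave 0. DNAJB9, the gene with the clearest doxycycline difference, was 0.06 in I vs C (95% interval −0.19 to 0.32) and −0.01 in DI vs D (−0.27 to 0.24).

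The doxycycline effect with IFNγ was also set against that without it. The interaction ran from −0.28 (XBP1) to 0.25 (SDF2L1), and 0 of 10 genes were called or had an unadjusted p under 0.05. Over all tested genes 0 were called by edgeR (0%), 99 (0.625%) had an unadjusted p under 0.05, and DESeq2 called 2. The intervals were wide, for example −1.19 to 0.71 for HERPUD1 and −0.44 to 0.29 for DNAJB9.

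The 10 genes followed different patterns over the libraries. HERPUD1, XBP1 and ERN1 were highest in D 3 and next highest in DI 3. On the log2 scale D 3 exceeded the mean of the other D libraries by 1.20 for HERPUD1, 1.14 for XBP1 and 1.05 for ERN1, and DI 3 exceeded the other DI libraries by 0.70, 0.71 and 0.47. In C and I the same differences of replicate 3 were between 0.01 and 0.18 for these genes. By this measure DI 3 was also above the other DI libraries for PDIA4 (0.40), SDF2L1 (0.37), HSP90B1 (0.24) and HSPA5 (0.20). For D 3 the values of these chaperone genes were 0.18, −0.19, −0.02 and −0.13, in the same order. In C and I they ran from 0.01 to 0.35. HSPA5, HSP90B1, PDIA4 and SDF2L1 had their lowest value in DI 2 and the next lowest in D 2. The median of the cytosolic heat shock list was also lowest in these libraries, at −0.30 in DI 2 and −0.28 in D 2 relative to the mean of C. DNAJB9 followed neither pattern, with D 3 higher than the other D libraries by 0.27 and DI 3 lower by 0.04. The 5 other tested genes whose profile was most like the mean standardized profile of the 10 were WDR1, SHLD3, PHTF1, OSTM1 and SPAG1 (Pearson's r 0.92 to 0.93 over 12 libraries, which share groups and replicate numbers).

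The pathway was also examined in fixed lists, which include any of the 10 genes that belong to them. Their counts and medians therefore repeat some of the values above. Without the 10 genes, the lists of sensors, lumen chaperones, disulfide enzymes and degradation genes keep 7, 14, 14 and 18 tested genes. Of all tested genes 1.23%, 0.67% and 7.68% were called in D vs C, DI vs I and the mean effect. In the list of sensors and transducers, 0 of 10 tested genes were called in D vs C or in DI vs I. Under the replicate block 1 was called higher and 1 lower in each of these contrasts, and 3 higher and 2 lower in the mean effect, XBP1 among the former. Of all tested genes the block called 13.9%, 10.5% and 29% in D vs C, DI vs I and the mean effect. EIF2AK3, encoding PERK, was 0.42 in D vs C (SE 0.20, adjusted p = 0.386) and 0.49 in DI vs I (SE 0.20, adjusted p = 0.352). Under the block it passed in both, at 0.43 (adjusted p = 0.0217) and 0.51 (adjusted p = 0.0131), and was higher in 6 of 6 same-numbered pairs. MBTPS1, encoding the site-1 protease, was −0.00 and −0.03. The mean effect had 1 call, MBTPS2 of the site-2 protease, at −0.38 (adjusted p = 0.0184), which is named here after its value was seen, and which was the lower call of the block in each single contrast.

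Of 19 tested ER lumen chaperones and co-chaperones, DNAJB9 was the 1 called in D vs C, in DI vs I and in the mean effect, and the list's median log2 fold change was −0.10, −0.06 and −0.05 in these contrasts. The medians of all tested genes lay within 0.01 of 0. With the replicate block 3, 2 and 4 genes were called lower and 0 higher, beside 7.67%, 6.62% and 15.8% of all tested genes called lower. The membrane lectin CANX (calnexin) was 0.05 (D vs C) and 0.00 (DI vs I). Its lumenal relative CALR (calreticulin) was −0.55 (SE 0.23, adjusted p = 0.321) and −0.39 (SE 0.23, adjusted p = 0.568). CALR had 371, 363 and 496 CPM in C and 324, 218 and 299 in D, so its D libraries were all below C, as were 9.1% of all tested genes. With the replicate block CALR passed in D vs C (−0.56, adjusted p = 0.0165) and in the mean effect (−0.48, adjusted p = 0.00277), but not in DI vs I (adjusted p = 0.0596), and it was lower in 6 of 6 same-numbered pairs.

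Of 15 tested disulfide enzymes 0 were called in any doxycycline contrast without the block, although 13 had a value below 0 in D vs C and the median was −0.12. The block called 7.67%, 6.62% and 15.8% of all tested genes lower in D vs C, DI vs I and the mean effect. In this list it gave 0, 1 and 5 calls, all lower. The 5 were P4HB (−0.19, adjusted p = 0.0203), QSOX1, PDIA5, TXNDC5 and ERO1B, of which all but P4HB are named after their values were seen, and QSOX1 was the call in DI vs I. P4HB, the archetypal protein disulfide isomerase, was −0.19 and −0.18, and PDIA3, which pairs with calnexin and calreticulin, was −0.14 in both contrasts, values that passed in neither. Without the block, 1 gene of the list was called with IFNγ. This was PDIA6, a BiP-associated isomerase, at 0.75 in I vs C (adjusted p = 0.00137) and 0.54 in DI vs D (adjusted p = 0.0179). Under the block 2 genes of the list were called higher in I vs C and 2 in DI vs D, beside 4.88% and 3.77% of all tested genes. PDIA6 is named here after its values were seen.

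In ER-associated degradation, 1 of 19 tested genes was called in D vs C, and again 1 in DI vs I. This was DERL1, encoding the retrotranslocation channel protein Derlin-1, which fell. DERL1 had 69.6, 67.9 and 69.1 CPM in C against 48.4, 37.5 and 45.4 in D, and 78.9, 71.8 and 80.1 in I against 54.9, 45.6 and 48.2 in DI. Its log2 fold change was −0.65 (SE 0.11, adjusted p = 0.0225) and −0.63 (SE 0.11, adjusted p = 0.0336). Without D 3 the DERL1 values were −0.68 and −0.63 and neither passed (adjusted p = 0.0601 and 0.0513), and without DI 3 the DI vs I value of −0.62 did not (adjusted p = 0.148). In the mean effect DERL1 lost its call without replicate 3 of every group (−0.63, adjusted p = 0.0617). Over both contrasts together 1 gene of the list was called higher, HERPUD1, and 2 lower, among them DERL1. The replicate block gave 3 genes called higher and 4 lower for D vs C, 2 higher and 2 lower for DI vs I, and 4 higher and 5 lower for the mean effect. Of all tested genes it called 13.9%, 10.5% and 29% in these contrasts, in either direction. The ATPase gene VCP was −0.08 and −0.02, and the ligase gene MARCHF6 was 0.25 and 0.22, and neither was called. Under the block MARCHF6 passed in D vs C (adjusted p = 0.0467) and in the mean effect (0.23, adjusted p = 0.00761).

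Of 22 tested genes for translocation into and export from the ER, 0 were called in D vs C or DI vs I, with medians of −0.05 and −0.11. SPCS3 of the signal peptidase was −0.25 and −0.27 and KDELR2, the receptor that returns BiP and GRP94 to the ER, was −0.05 and −0.02. The mean effect had 1 lower call, SSR2 of the translocon-associated complex (−0.33, adjusted p = 0.0297, named after its value was seen). Under the replicate block SSR2 was the 1 call in each single contrast, and 2 genes were called higher and 6 lower in the mean effect, among the latter SPCS3 (−0.26, adjusted p = 0.0140). Cytosolic heat shock genes had 0 of 18 called in each doxycycline contrast, and with the block 0, 0 and 5 (3 higher, 2 lower in the mean effect). Beside both lists, the block called 13.9%, 10.5% and 29% of all tested genes in D vs C, DI vs I and the mean effect. HSP90AB1 was −0.14 and −0.09 and HSPA8 was −0.04 and 0.10.

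The ATF4 branch had as few calls as these lists in the single contrasts, but more in the mean effect and a higher median, and no difference between lists was tested. Of 19 tested genes 1 was called higher in D vs C, 0 in DI vs I and 9 in the mean effect, and 0 were called lower. Of all tested genes 0.493%, 0.101% and 3.66% were called higher. With the replicate block 9, 8 and 12 of the list were called higher and 0 lower, beside 6.23%, 3.85% and 13.3% of all tested genes called higher. The list's median log2 fold change was 1.01 in D vs C, 0.92 in DI vs I and 1.04 in the mean effect. CHAC1, a glutathione-degrading enzyme gene induced by ATF4, had 2.89, 2.43 and 1.93 CPM in C against 17.4, 10.04 and 69.1 in D. It had 1.34, 2.02 and 1.36 CPM in I against 18.5, 9.49 and 43.0 in DI. Its log2 fold change was 3.73 in D vs C (SE 0.75, adjusted p = 0.0425) and 3.91 in DI vs I (SE 0.77, adjusted p = 0.0523, or 3.65 with adjusted p = 0.00456 under the block). ATF4 itself was 0.51 and 0.59, and passed in the mean effect (0.55, SE 0.12, adjusted p = 0.0258), and under the block also in DI vs I (0.60, adjusted p = 0.0369). PSAT1 of serine synthesis was 0.87 and 0.92 (adjusted p = 0.302 and 0.336), and passed in the mean effect only under the block (0.80, adjusted p = 0.0110).

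The ATF4 values were smaller without the libraries that stood apart. Without D 3 the list's median in D vs C was 0.43 with 0 calls, and without DI 3 its median in DI vs I was 0.56 with 0 calls. Without replicate 3 of every group the medians were 0.55, 0.63 and 0.50 in D vs C, DI vs I and the mean effect, and the calls were 0, 0 and 1. CHAC1 was 2.50 in D vs C without D 3 (adjusted p = 0.0809) and 3.15 in DI vs I without DI 3 (adjusted p = 0.152), and its mean effect without replicate 3 of every group still passed (2.72, adjusted p = 0.0201). ATF4 in the mean effect was 0.49 without D 3 (adjusted p = 0.0548), 0.53 without DI 3 (adjusted p = 0.0608) and 0.34 without replicate 3 of every group (adjusted p = 0.163). PSAT1 was 0.43 in D vs C without D 3 and 0.67 in DI vs I without DI 3. These settings were added after the data were seen.

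**Figure D3:**
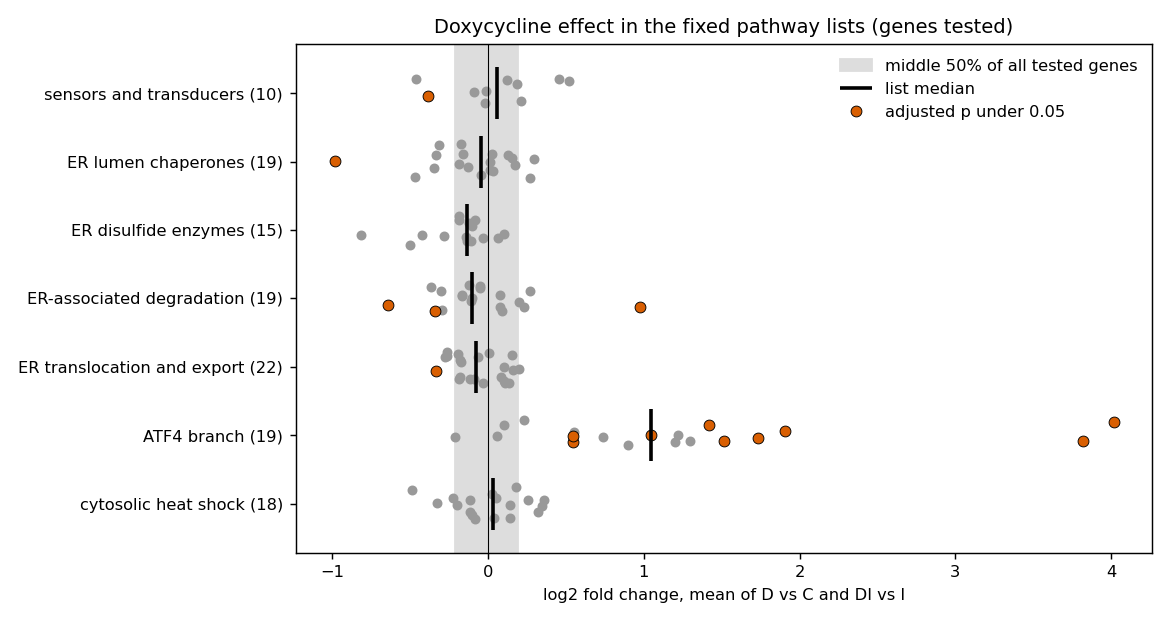
Log2 fold change of each tested gene in the fixed lists (rows, with the number tested) for the mean of D vs C and DI vs I (x axis). Filled orange points passed an adjusted p of 0.05, black bars are list medians and the grey band is the middle 50% of all tested genes. The ATF4 branch has a median of 1.04 and 9 genes called, while the medians of the ER lists lie between −0.13 and 0.06.

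The lists were also followed library by library. With the 10 genes left out, the median log2 difference of the ATF4 branch from the mean of C was 0.45, 0.34 and 1.91 in D 1 to D 3 and 0.72, 0.46 and 1.16 in DI 1 to DI 3. D 3 and DI 3 were thus the highest libraries for these genes, as they were for HERPUD1, XBP1 and ERN1. The median of the 14 other ER lumen chaperones was 0.08, −0.27 and 0.01 in D, and 0.04, −0.33 and −0.01 in DI. In both groups it was lower in replicate 3 than in replicate 1, and higher than in replicate 2. The median of the 18 other degradation genes was between −0.19 and 0.05 in the same libraries. How far the ATF4 level accounts for the HERPUD1 and XBP1 values was not tested.

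**Figure D4:**
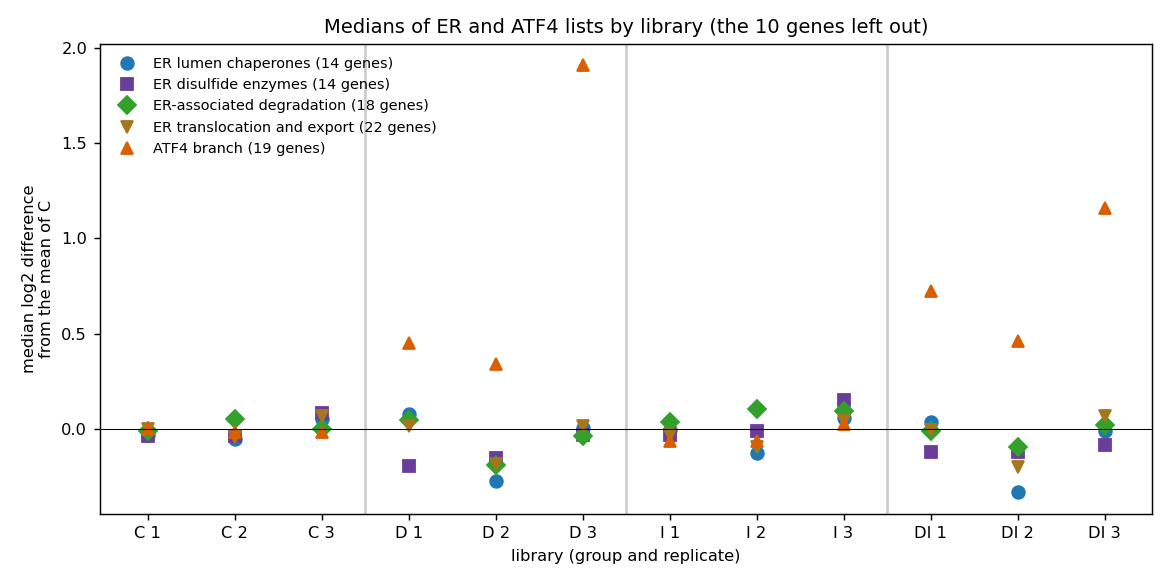
Median log2 difference from the mean of C (y axis) over the genes of each list, without the 10 genes, in each of the 12 libraries (x axis). The ATF4 branch reaches 1.91 in D 3 and 1.16 in DI 3, while the medians of the ER lists lie between −0.33 and 0.15 in all libraries.

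The promoter motifs were read back against expression as a description. In RefSeq 44 genes held an ERSE or ERSE-II, of which 32 were tested. Of these 0 were called in D vs C or in DI vs I, beside 1.23% and 0.67% of all tested genes. The replicate block gave 1 call higher and 3 lower for D vs C, 1 higher and 1 lower for DI vs I, and 3 higher and 8 lower for the mean effect. Of all tested genes the block called 13.9%, 10.5% and 29% in these contrasts, the last as 13.3% higher and 15.8% lower. The median log2 fold change of the 32 was 0.02 (D vs C) and −0.08 (DI vs I). In the mean effect 2 were called, both higher, HERPUD1 and CNKSR1 (1.25, adjusted p = 0.0338), the latter a scaffold protein gene named after its value was seen. Of all tested genes 7.68% were called in the mean effect, 3.66% of them higher and 4.02% lower as shares of all tested genes. Genes of the ER folding cycle with an ERSE or ERSE-II included CALR, CRELD2 (−0.37 in D vs C, adjusted p = 0.658), HYOU1 (0.16, adjusted p = 0.788) and PDIA6 (0.01, adjusted p = 0.985). None of these was called with doxycycline without the block, while CALR was called lower under it as given above. SERP1 and ERO1B, named after their values were seen, also held an ERSE. Under the block SERP1 was called lower in D vs C (−0.34, adjusted p = 0.0194), DI vs I (−0.35, adjusted p = 0.0241) and the mean effect (−0.34, adjusted p = 0.00165). ERO1B was called lower under it in the mean effect alone (−0.79, adjusted p = 0.0281). Of the 10 genes, HSPA5, HSP90B1, XBP1, SDF2L1 and HERPUD1 carried a motif, and their mean effects ran from −0.32 (SDF2L1) to 0.98 (HERPUD1), whereas DNAJB9 had no match in its window.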

How the data were processed

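The authors deposited raw counts per gene, which are whole numbers for 43769 genes, and the aligner, counting tool and strand setting are not given in the sources used here. Another 18 per-library columns match no sample label and were not used, nor were the authors' tables of fold changes and p-values. Counts were filtered (filterByExpr, minimum count 10), scaled by TMM and fitted over the 12 libraries in 4 groups with edgeR 4.0.16 (limma 3.58.1, R 4.3.3, two-sided quasi-likelihood test, BH adjustment over 15828 genes), after the code was tested on simulated data. DESeq2 1.42.0 and Python 3.11.15 served for an alternative test and for promoters. Contrasts were D vs C, DI vs I, their mean, I vs C, DI vs D and the interaction. Intervals are 95% and cover counting error and replicate spread, since reads carry no molecular identifiers.

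After removal of group means, libraries with the same replicate number correlated at 0.32 to 0.84 (18 pairs) and others at −0.66 to 0.18 (36 pairs). Deviations cancel out within each group, so positive values for the same number push those of other numbers down. The numbers were taken to pair the libraries because all 18 same-number pairs were positive. The labels do not state such a pairing. Replicates of a group differed by more than counting noise (chi-square per gene 18.6 to 82.2), so none was counted as a duplicate.

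The 10 genes and all lists were chosen with earlier results of these data known. All 10 were named. From each other list, up to 2 called genes of the largest change in D vs C and DI vs I were named, with the 2 most abundant where fewer than 2 were called. Results for some items are not reported here.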

Additional observations from a re-analysis of the deposited data

How the results depend on the processing

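Across 30 fitted changes of the 10 genes in the doxycycline contrasts, 500 alternative values were computed, of which 443 kept direction and side of the threshold, 17 lost a call, 5 gained one and 35 turned sign. The lowest adjusted p among the values that turned sign was 0.577. No direction of DNAJB9, HERPUD1, XBP1 or HSP90B1 turned. Leaving out all libraries of a replicate number was chosen after seeing the data, as were the lists without D 3 or DI 3 and the promoter genes with the block.

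The number of the 10 genes called in D vs C was 1, and became 2 by DESeq2's Wald test and 0 with only the compared groups. In DI vs I it was 1 and became 0 with only the compared groups. In the mean effect it was 2 and became 1 at an adjusted p under 0.01. Leaving out single libraries or replicate numbers gave 0 to 1 in each of these contrasts and 1 to 2 in the mean effect. With the replicate number as a block the numbers were 2, 2 and 4, and 0 in I vs C, DI vs D and the interaction.

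Over all genes, calls in D vs C were 194, or 772 by DESeq2, 119 without the filter, 2200 with the block, 16 with only the compared groups, 32 at an adjusted p under 0.01 and 0 to 100 with libraries left out. In DI vs I they were 106, or 590, 84, 1658, 0 and 30 in the same order, and 0 to 77 with libraries left out. In the mean effect they were 1216, or 2236 by DESeq2, 752 without the filter, 4593 with the block, 304 at 0.01 and 71 to 1362 with libraries left out. In I vs C they were 350, or 558 by DESeq2 and 953 with the block, in DI vs D 273, or 442 and 706, and in the interaction 0, or 2 by DESeq2. Scaling by library size alone moved the split of higher and lower calls from 78 and 116 to 199 and 89 in D vs C, from 16 and 90 to 54 and 65 in DI vs I, and from 579 and 637 to 1250 and 431 in the mean effect.

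Library size alone turned HSPA5 to 0.055 in D vs C, 0.029 in DI vs I and 0.042 in the mean effect, PDIA4 in DI vs I to 0.0017 and DNAJC3 in DI vs I to 0.089. DNAJC3 in DI vs I also turned to 0.0022 without the filter and 0.0089 with only the compared groups. With libraries left out, HSPA5 ran from −0.27 to 0.080 in D vs C, −0.26 to 0.15 in DI vs I and −0.26 to 0.11 in the mean effect. ERN1 ran from −0.14 to 0.57, −0.11 to 0.20 and −0.081 to 0.34. PDIA4 ran from −0.25 to 0.014 (D vs C) and from −0.23 to 0.10 (DI vs I). In DI vs I, DNAJC3 ran from −0.051 to 0.057, SDF2L1 from −0.43 to 0.045 and ATF6 from −0.12 to 0.21. The causes were not tested. The effect of depth on the calls was not tested.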
